A study of Homo sapiens with 12 samples.

Results

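The difference between 2 established human prostate cancer cell lines in their response to pentamidine was measured gene by gene, as the interaction of treatment and line in the count table of all 12 RNA-seq libraries of the series. There were 3 libraries in each of 4 groups, which were PC3 cells with vehicle, PC3 cells with 2.5 μM pentamidine, DU145 cells with vehicle and DU145 cells with the same dose, all collected after 48 h. Pentamidine is a cationic aromatic diamidine used against protozoa, and the vehicle was sterile distilled water. Both lines are single cultured tumour lines that grow without androgen, and no group carried a genetic change made for the experiment. The deposited table gave counts for 32077 genes, of which 15226 had enough counts to be tested. For each gene, the change is the fitted log2 fold change of pentamidine against vehicle within a line, and the difference is the change in the PC3-labelled line minus that in the DU145-labelled line. A gene was called where the size of the log2 value was above 1 and the adjusted p below 0.05 (quasi-likelihood test of edgeR, p-values adjusted by Benjamini-Hochberg over all genes tested). Levels are TMM-normalized CPM, counts scaled to the size of the library, which are not divided by gene length and are compared only between samples of 1 gene. Sample values are given in the order of replicates 1 to 3. A value after ± is an approximate standard error, the size of the log2 value over the square root of its quasi-likelihood F statistic. The 95% intervals were built from it.

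The lines were checked against genes known to mark them before any difference was read. PC3 cells are known for a homozygous deletion that reaches CTNNA1, which encodes alpha-catenin, although a deletion can leave part of a gene to be counted. CTNNA1 had 6003 to 8545 counts in the 6 PC3-labelled libraries. RB1, the retinoblastoma gene that is known to be mutated in DU145 cells, had 1123 to 1403 counts in PC3-labelled and 1001 to 1210 in DU145-labelled libraries. The epithelial markers EPCAM, CDH1 and KRT19 were at or near 0 in both lines. KRT8, an epithelial keratin, had 238 to 307 counts in the PC3-labelled libraries and 25835 to 38812 in the DU145-labelled libraries. The keratin KRT18 was well counted in both, with 2125 to 3085 in the PC3-labelled and 9962 to 13423 in the DU145-labelled libraries. KRT7 had 19 to 80 and 176 to 294. The study's methods state that its lines were authenticated by short tandem repeats. Because these counts do not all match what the names lead one to look for, the libraries are called PC3-labelled and DU145-labelled throughout. Summed markers of fibroblasts, leukocytes and endothelial cells stayed at or below 3.12 CPM in every library. Total counts ranged from 13514195 to 15131436 per library. PC3-labelled vehicle replicate 1 stood apart, with a chi-square per gene of 5.99 and 7.32 against the other vehicle libraries of its line, where replicate pairs elsewhere gave 1.71 to 3.65. The labels do not say whether replicates came from separate cultures, so the p-values measure the spread between these samples, which may be technical.

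Several systems that answer stress meet in the genes described here. When translation is slowed through phosphorylated eIF2-alpha, the transcription factor ATF4 is made and switches on genes of amino acid supply, redox balance and stress signalling. NF-kB, held in the cytoplasm by inhibitors until a signal frees it, drives cytokine and chemokine genes, and in tumour lines it is often active without added stimulus. A gene that is silent in 1 line has no transcript to lose there, so the vehicle level is part of reading a response confined to 1 line.

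Of the 15226 genes tested, 399 (2.62%) had a difference past the threshold. The response was more positive in the PC3-labelled line for 261 of them (1.71%) and less positive for 138 (0.906%), so that 65.4% were more positive there. This share was 56% of 409 genes when libraries were scaled by size alone and 76.7% of 232 genes with limma on log2(CPM + 1). By adjusted p alone, with no limit on size, 3112 genes (20.4%) differed, 1546 (10.2%) more and 1566 (10.3%) less positive in the PC3-labelled line. The changes within the lines numbered 782 genes in the PC3-labelled line (5.14%), 562 higher (3.69%) and 220 lower (1.44%), and 285 in the DU145-labelled line (1.87%), 191 higher (1.25%) and 94 lower (0.617%), where limma had 52 of 104 higher. The 399 genes were sorted by their changes in the 2 lines. A change past the threshold in the PC3-labelled line alone, with an adjusted p of 0.05 or more in the other line, was found for 183 genes (1.2%), 119 higher and 64 lower. The same in the DU145-labelled line alone held for 20 genes (0.131%), 11 higher and 9 lower, a split that was 18 of 26 higher with library size alone and 4 of 13 with limma, and ranged from 8 of 20 without DU145-labelled treated replicate 1 to 15 of 22 without DU145-labelled vehicle replicate 1. In 67 genes (0.44%) both lines changed with an adjusted p below 0.05 and in opposite directions, higher in the PC3-labelled line for 44 and lower there for 23, and 5 of the 67 exceeded a log2 change of 1 in both lines. The larger direction turned with library size alone, where 33 of 71 were higher in the PC3-labelled line, and without PC3-labelled vehicle replicate 2 it was 34 of 63. A further 74 genes (0.486%) changed in the same direction by different amounts, 62 of them rising more in the PC3-labelled line. For the remaining 55 genes (0.361%) the changes within the lines did not meet any of these rules. These are bulk samples, in which a smaller share of responding cells and a weaker response per cell cannot be told apart.

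**Figure D1:**
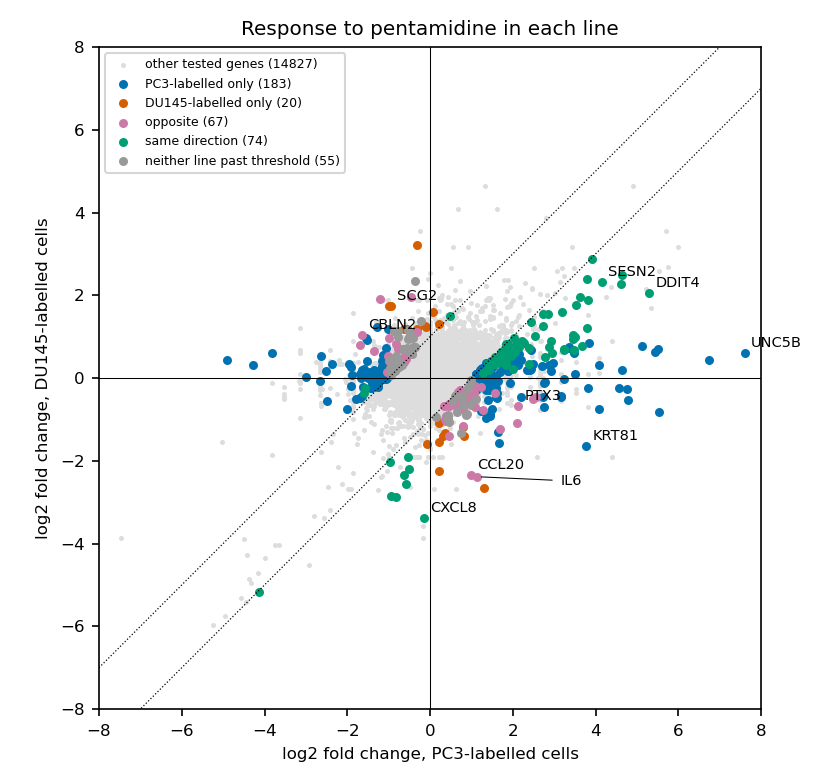
Fitted log2 fold change with pentamidine in the PC3-labelled line (x axis) against that in the DU145-labelled line (y axis) for the 15226 genes tested, with 1 point per gene. Dotted lines mark a difference of 1 between the lines, and the 183 genes that responded in the PC3-labelled line alone spread along the x axis while IL6 and CCL20 lie at lower right, with a rise in the first line and a fall in the second. Fitted values of genes near 0 counts, such as UNC5B in vehicle, depend on the prior count.

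Chemokine and cytokine genes driven by NF-kB were among the genes with opposite or unequal responses. Of 28 tested genes in a list of NF-kB targets and chemokines, 12 were past the threshold for the difference, all more positive in the PC3-labelled line (42.9% of the list, against 1.71% of all genes in that direction). None was past it in the other direction with edgeR or DESeq2, and limma called 1. By adjusted p below 0.05 alone, edgeR had 19 more and 1 less positive in the PC3-labelled line, where 10.2% and 10.3% of all genes were. The number less positive by adjusted p was 1 with DESeq2 and 2 with limma. At an unadjusted p below 0.05 it was 1 with edgeR. The median change of the list was -0.13 in the PC3-labelled line and -1.37 in the DU145-labelled line, where the medians over all genes were 0.0013 and 0.0047. Within the DU145-labelled line 24 of the 28 fell with an adjusted p below 0.05, as did 12.6% of all genes, and none rose, also at an unadjusted p below 0.05 and with DESeq2 or limma. In the PC3-labelled line 7 rose and 14 fell, where 21.6% and 22.2% of all genes did. The members named below beyond the largest differences were chosen after their values were seen.

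The 250 bases before the transcription start of 4 of these genes are shown with the letters of the NF-kB consensus in capitals. All 4 fell in the DU145-labelled line but differed in their change in the PC3-labelled line. The promoter is where this factor is known to act, and whether it acted there in these cells was not tested. The bases were taken from RefSeq on GRCh38.p14 and are written 5′ to 3′ in the direction of the gene. IL6 is at chr7:22726950-22727199 on the plus strand, CCL20 at chr2:227813592-227813841 on the plus strand, CXCL1 at chr4:73869143-73869392 on the plus strand and CXCL3 at chr4:74038690-74038939 on the minus strand. The RefSeq start lies downstream of the outermost start of the annotated gene for IL6 and CXCL3, so the stretch shown falls inside the annotated span of IL6 and partly inside that of CXCL3.
IL6: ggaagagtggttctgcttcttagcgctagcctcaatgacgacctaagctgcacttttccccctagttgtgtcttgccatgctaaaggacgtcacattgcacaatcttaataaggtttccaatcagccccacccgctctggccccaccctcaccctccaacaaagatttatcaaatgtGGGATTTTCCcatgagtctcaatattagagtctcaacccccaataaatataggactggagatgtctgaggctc
CCL20: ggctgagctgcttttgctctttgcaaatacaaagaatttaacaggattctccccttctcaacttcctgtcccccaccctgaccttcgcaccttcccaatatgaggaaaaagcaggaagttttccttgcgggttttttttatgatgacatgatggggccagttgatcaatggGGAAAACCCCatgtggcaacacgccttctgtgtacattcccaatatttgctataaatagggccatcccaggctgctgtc
CXCL1: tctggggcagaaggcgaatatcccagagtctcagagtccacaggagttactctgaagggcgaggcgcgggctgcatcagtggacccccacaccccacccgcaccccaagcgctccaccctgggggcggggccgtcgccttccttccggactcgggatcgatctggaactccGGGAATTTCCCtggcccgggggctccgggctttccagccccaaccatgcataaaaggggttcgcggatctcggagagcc
CXCL3: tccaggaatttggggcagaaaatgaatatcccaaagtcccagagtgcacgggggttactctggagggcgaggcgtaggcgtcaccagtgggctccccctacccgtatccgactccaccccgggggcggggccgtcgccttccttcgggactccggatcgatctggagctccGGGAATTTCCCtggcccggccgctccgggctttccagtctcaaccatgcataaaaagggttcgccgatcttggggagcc
The match begins 73 bases before the start in IL6 and 79 bases before it in CCL20, CXCL1 and CXCL3. In CCL20 it reads GGAAAACCCC, on the strand opposite to the gene, and in CXCL1 and CXCL3 the capitals are 2 overlapping matches, 1 on each strand. Over the 300-base windows that also take in 50 bases after the start, 15 of the 23 list members with a promoter in the table (65.2%) held the consensus on either strand, against 11.3% of all 35116 promoters there and 17.6% of the 10242 tested genes with a promoter. Among the 12 members past the threshold, 11 had a promoter and 7 of those held it, and CXCL8, SOD2, TNF and TNFAIP2 did not. This consensus was added to the motifs searched after the data were seen, and a match is a description of letters, not a bound site. The list was made of NF-kB targets and chemokines, so its share above that of all promoters is not a test. Among the 11 past the threshold the share was 63.6%, close to the 65.2% of the list. It therefore does not bear on the difference between the lines.

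IL6 (chr7:22725884-22732002, GRCh38), the acute-phase cytokine interleukin 6, was at 11.7, 13.98 and 12.7 CPM in the PC3-labelled vehicle samples and at 25.4, 32.8 and 26.8 CPM with pentamidine. The 3 DU145-labelled vehicle samples read 44.2, 41.6 and 47.2 CPM and the treated ones 8.64, 9.77 and 7.01 CPM. The groups did not overlap in either line, as was so for 25.4% of all genes (48.8% in the PC3-labelled and 42.2% in the DU145-labelled line), and the order of the lines was reversed, since the DU145-labelled cells had the higher level in vehicle and the lower level with the drug. Its change was 1.14 ± 0.11 in the PC3-labelled line and -2.38 ± 0.11 in the other, a difference of 3.52 ± 0.15 (adjusted p = 1.15e-15).

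CCL20 (chr2:227813842-227817564), the ligand of the receptor CCR6, showed the same arrangement. Its PC3-labelled samples went from 7.04, 7.18 and 7.14 CPM to 12.5, 14.3 and 15.4 CPM. Its DU145-labelled samples went from 52.00, 47.9 and 47.04 CPM to 10, 8.89 and 10.1 CPM, so that the lower vehicle level of the PC3-labelled line became the higher level with the drug. The difference was 3.32 ± 0.14 (adjusted p = 7.38e-16).

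PTX3, a soluble pattern-recognition protein of the pentraxin family, read 35.8, 30.03 and 32.8 CPM in PC3-labelled vehicle samples and 137, 150.01 and 143 CPM with pentamidine. In the DU145-labelled line it fell from 255, 264 and 281 CPM to 164, 165 and 170.1 CPM. Here the 2 lines drew together, and the DU145-labelled treated samples stayed above the PC3-labelled ones. The difference was 2.81 ± 0.08 (adjusted p = 1.34e-19). LIF, a cytokine of the interleukin 6 family, likewise rose by 0.66 ± 0.04 in the PC3-labelled line and changed by -0.70 ± 0.04 in the DU145-labelled line, from a vehicle level that was higher in the latter. TNFAIP2 and CXCL2, in contrast, started higher in the PC3-labelled line and moved further apart. TNFAIP2 rose there from 53.8, 49.5 and 50.2 CPM to 74.4, 67.5 and 70.1 CPM and fell in the DU145-labelled line from 19.7, 22.05 and 21.04 CPM to 8.35, 6.85 and 8.68 CPM. CXCL2 had changes of 0.79 ± 0.11 and -1.16 ± 0.19.

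Other members of the list fell in the DU145-labelled line and changed less in the PC3-labelled line. CXCL8 (chr4:73740506-73743716), which encodes the neutrophil attractant interleukin 8, read 127, 138 and 129.7 CPM in PC3-labelled vehicle samples and 116, 120.2 and 119.6 CPM with the drug. The DU145-labelled vehicle samples read 56.3, 58.2 and 60.3 CPM and the treated ones 6.498, 4.34 and 5.902 CPM. The change in the PC3-labelled line was -0.15 ± 0.05 and that in the DU145-labelled line, which had the lower vehicle level, -3.39 ± 0.09. CXCL1, a close relative, fell in both lines, from 185, 179 and 169 to 123, 119.9 and 115 CPM in the PC3-labelled samples and from 352, 327 and 331 to 61.1, 55.2 and 54.8 CPM in the DU145-labelled samples.

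CXCL3 was at similar levels in vehicle in both lines (vehicle difference 0.01 ± 0.17), at 4.88, 5.37 and 6.19 CPM in PC3-labelled and 5.66, 6.23 and 4.401 CPM in DU145-labelled samples. With pentamidine it stayed at 6.75, 6.54 and 5.73 CPM in the first and fell to 1.29, 1.22 and 0.903 CPM in the second. Its change in the PC3-labelled line was 0.21 ± 0.16 with a 95% interval of -0.12 to 0.55. CXCL1, CXCL2 and CXCL3 are near-identical genes, and how reads shared between them were counted is not given in the sources used here.

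SOD2 (chr6:159669057-159762529), the mitochondrial manganese superoxide dismutase and a target of NF-kB, gave 279, 288 and 289 CPM and 263, 264 and 280.2 CPM in the PC3-labelled line without and with the drug. In the DU145-labelled line it fell from 497, 484 and 477 CPM to 154, 164 and 162 CPM. The interval of its change in the PC3-labelled line, -0.17 to -0.00, lay wholly within a log2 change of 1. CSF3, the granulocyte colony-stimulating factor, read 14.4, 12.9 and 13.9 CPM in PC3-labelled and 13.6, 13.3 and 12.8 CPM in DU145-labelled vehicle samples. It fell by different amounts, to 8.09, 6.82 and 8.298 CPM in the PC3-labelled line and to 1.999, 2.37 and 1.04 CPM in the other, a difference of 2.04 ± 0.23.

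Genes for 2 inhibitors of NF-kB, named after their values were seen, fell in both lines. TNFAIP3, which encodes the feedback inhibitor A20, changed by -0.54 ± 0.10 in the PC3-labelled line and -1.90 ± 0.09 in the DU145-labelled line. NFKBIA, which encodes the inhibitor IkB-alpha, changed by -0.81 ± 0.06 and -1.62 ± 0.05, and its difference of 0.81 ± 0.08 did not reach 1. TNF itself fell in both lines, by -0.97 ± 0.15 and -2.03 ± 0.10. BIRC3, an inhibitor of apoptosis that NF-kB drives, fell by -1.38 ± 0.06 and -1.79 ± 0.06, and its difference of 0.41 ± 0.08 was under the threshold. Its samples went from 149, 161 and 127 to 55.4, 57.3 and 55.8 CPM in the PC3-labelled line and from 391, 415 and 425 to 119.5, 119.8 and 118 CPM in the other. Of the 28 genes of the NF-kB list, 13 were called lower and 5 higher in PC3-labelled than in DU145-labelled vehicle samples, where 12.5% and 8.18% of all genes were. These vehicle samples also enter the difference, so the 2 comparisons are not independent.

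**Figure D2:**
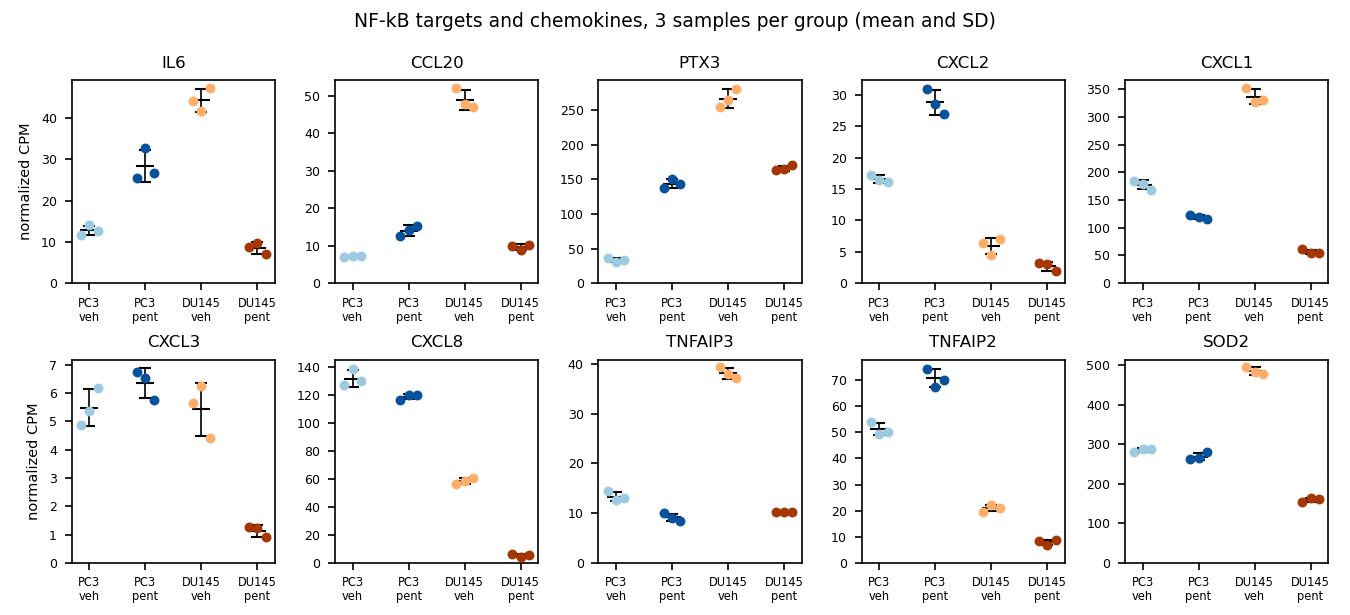
Normalized CPM (y axis, from 0) of 10 NF-kB targets and chemokines in each of the 4 groups, with 1 point per sample, the mean as a dash and the SD as bars. IL6, CCL20, PTX3, CXCL2 and TNFAIP2 rise in the PC3-labelled line and fall in the DU145-labelled line, while CXCL8 falls from 56.3, 58.2 and 60.3 to 6.498, 4.34 and 5.902 CPM in the latter.

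Among the other genes with opposite responses, TNFSF18, the ligand of the T cell receptor GITR, was at 2.17, 1.62 and 2.06 CPM in PC3-labelled and 2.09, 1.89 and 1.65 CPM in DU145-labelled vehicle samples. It rose to 8.701, 7.67 and 8.91 CPM in the PC3-labelled line and fell to 0.928, 0.882 and 0.833 CPM in the other, a difference of 3.19 ± 0.33 (adjusted p = 2.80e-08). RGS3, which shortens signalling by G proteins, rose from 7.92, 9.901 and 9.65 to 56.6, 52.4 and 53.97 CPM in the PC3-labelled line. Its change in the DU145-labelled line was small and negative at -0.46 ± 0.15. The EGF receptor ligands epiregulin (EREG) and HBEGF had changes of 1.02 ± 0.06 and 0.38 ± 0.05 in the PC3-labelled line and of -0.52 ± 0.06 and -1.05 ± 0.05 in the DU145-labelled line. Of 12 tested EGF receptor ligands and receptors, 3 were past the threshold (25%, against 1.71% of all genes), and the other was BTC, which rose in both lines. With DESeq2, library size alone or limma, 2 of the 12 were past it. By adjusted p alone edgeR had 4 more and 0 less positive in the PC3-labelled line, and limma had 3 and 3. IER3, an early response gene that modulates cell death, changed by 0.92 ± 0.05 and -0.60 ± 0.05, and TNFRSF10B, the death receptor DR5, by 0.64 ± 0.04 and -0.44 ± 0.04. DR5 thus went from 128, 140.4 and 136 to 208, 212 and 209 CPM in the PC3-labelled line and from 224, 209 and 211 to 159, 156 and 158 CPM in the DU145-labelled line, which exchanged the order of the lines. TSPAN18, a tetraspanin, had 1, 1 and 0 counts in PC3-labelled vehicle libraries and 5, 1 and 7 with pentamidine, and its call was lost without PC3-labelled vehicle replicate 3 (adjusted p = 0.0592), treated replicate 1 (adjusted p = 0.0582) or treated replicate 3 (adjusted p = 0.121), by the same edgeR test.

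In the reverse orientation, 23 genes fell in the PC3-labelled line and rose in the other. CBLN2 (chr18:72536680-72638521), a secreted organizer of synapses, went from 21.1, 23.4 and 21.6 to 6.75, 7.32 and 6.95 CPM in the PC3-labelled line. In the DU145-labelled line it went from 0.8195, 0.8399 and 1.03 to 2.21, 1.56 and 1.81 CPM, so the 2 lines moved towards each other from a vehicle level far higher in the first. PPARG, a nuclear receptor of fat-cell differentiation, and KIRREL3, an adhesion molecule, also started much higher in the PC3-labelled line. PPARG fell there by a little, -0.31 ± 0.08, from 34.3, 33.9 and 34.2 CPM, and rose by 1.11 ± 0.34 in the DU145-labelled line, where all samples were at or below 1.04 CPM. KIRREL3 fell by -0.47 ± 0.15, and in the DU145-labelled vehicle libraries it was at 3 counts or fewer, so that its rise there is at least 1.84-fold. KREMEN2, a receptor for the Wnt inhibitor Dickkopf, and SLIT2, a guidance ligand of Robo receptors, had smaller vehicle differences, -0.66 ± 0.19 and -0.25 ± 0.12. SLIT2 read 8.87, 7.18 and 7.59 CPM against 9.24, 9.099 and 9.83 CPM in vehicle, and 4.92, 4.48 and 4.52 CPM against 16.2, 15.7 and 13.9 CPM with pentamidine. The difference was -2.01 ± 0.29 for KREMEN2 and -1.46 ± 0.18 for SLIT2.

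Genes that rose in the PC3-labelled line alone were often lower there in vehicle than in the DU145-labelled line. Over the 119 that rose, the vehicle level was called lower in the PC3-labelled line for 64 (53.8%, against 12.5% of all genes) and higher for 10 (8.40%, against 8.18%). In 22 of the 119 every PC3-labelled vehicle library had 3 counts or fewer, and 29 did not reach a mean of 1 CPM in that line even with pentamidine. Over all 15226 genes tested these numbers were 511 and 1922. Of the 64 that fell, 17 (26.6%) were lower and 15 (23.4%) higher in the PC3-labelled vehicle samples. For 129 of the 183 genes the 95% interval of the change in the DU145-labelled line lay within a log2 change of 1, and for the other 54 a change past 1 there cannot be told from none at this depth. Over all 15226 genes tested, the interval in that line lay within 1 for 12527. With a mean of at least 1 CPM asked of the responding line, an alternative chosen after seeing the data, 143 of the 183 were kept. Of these, 90 rose, 36 (40%) with a lower and 10 (11.1%) with a higher PC3-labelled vehicle level. The other 53 fell, 9 (17%) with a lower and 15 (28.3%) with a higher level. A gene with few counts in every PC3-labelled library was tested only where the DU145-labelled libraries had enough.

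UNC5B (chr10:71212570-71302864), a netrin receptor, had 0, 0 and 1 counts in the PC3-labelled vehicle libraries and 77, 86 and 104 with pentamidine, at least a 29.6-fold rise against a floor of 3 counts per library. In the DU145-labelled line it was at 0.8195, 0.5599 and 0.963 CPM in vehicle and 1.21, 0.882 and 1.46 CPM with the drug, with a change of 0.59 ± 0.35. The level it reached in the PC3-labelled line, 5.19, 6.11 and 7.02 CPM, was above every DU145-labelled sample.

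AKNA, an AT-hook protein that organizes microtubules, rose from 0.406, 0.906 and 0.442 to 16.9, 17.4 and 14.4 CPM in the PC3-labelled line. Its DU145-labelled samples read 5.44, 5.25 and 3.58 CPM in vehicle and 4.36, 3.799 and 3.68 CPM with pentamidine. The difference was 5.02 ± 0.31 (adjusted p = 1.90e-12), and the line with the lower vehicle level ended with the higher one. LAMP3, a lysosomal membrane glycoprotein known from dendritic cells, behaved otherwise. It rose from 0.271, 0.0647 and 0.295 CPM to 4.38, 6.04 and 4.86 CPM, about the level that the DU145-labelled line held in vehicle, 4.62, 5.11 and 4.74 CPM, and with the drug, 5.14, 3.46 and 3.68 CPM. VLDLR, a receptor for lipoproteins and reelin, was at 0.542, 0.906 and 0.516 CPM in PC3-labelled and 0.8195, 0.4899 and 0.275 CPM in DU145-labelled vehicle samples, and reached 9.58, 8.74 and 10.3 CPM in the PC3-labelled line alone. DUSP5, a phosphatase that inactivates ERK, changed by 1.28 ± 0.10 there and by -0.09 ± 0.10 in the DU145-labelled line.

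Some genes in this class rest on very few counts. LINC00565, a long non-coding RNA, had 0 counts in every PC3-labelled vehicle library and 2, 2 and 6 with pentamidine, at least a 1.10-fold rise. KIF21B, a kinesin motor, had 1, 0 and 0 counts and then 3, 3 and 6, at least 1.33-fold. RPS6KL1 had 4, 1 and 2 counts in PC3-labelled vehicle libraries and 0 in all 3 treated ones, and its call was lost without vehicle replicate 1 (adjusted p = 0.0687, edgeR). All 3 had more counts in the DU145-labelled line, where their changes were -0.54 ± 0.21, -0.46 ± 0.19 and 0.30 ± 0.14, with RPS6KL1 at 10.9, 9.17 and 9.08 CPM in vehicle and 12.7, 11.3 and 11.9 CPM with the drug.

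Among genes that fell in the PC3-labelled line alone, HAS2 and SPTB had the higher vehicle level there. HAS2, a hyaluronan synthase, fell from 24.1, 24.3 and 25.6 to 7.22, 8.81 and 6.88 CPM in the PC3-labelled line, close to the 5.29, 4.899 and 5.71 CPM of the DU145-labelled vehicle samples. SPTB, a beta-spectrin of the membrane skeleton, dropped from 12.3, 11.8 and 11.6 to 3.44, 4.19 and 4.25 CPM, and its DU145-labelled samples never exceeded 1.36 CPM. ZNF488, a zinc finger transcription factor, fell by -1.67 ± 0.21 on the log2 scale in the PC3-labelled line and changed by 0.01 ± 0.15 in the other.

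The DU145-labelled line had few responses of its own. SCG2 (chr2:223596940-223602503), a secretory granule protein, rose there from 6.18, 6.09 and 4.74 to 18.99, 19.4 and 18.6 CPM. The PC3-labelled libraries held 3, 7 and 0 counts of SCG2 in vehicle and 2, 1 and 2 with the drug, and the difference lost its call without vehicle replicate 2 (adjusted p = 0.355, edgeR). FAM84B rose from 9.16, 9.66 and 9.83 to 27.1, 28.1 and 32.01 CPM in the DU145-labelled line and read 52.6, 54.03 and 50.6 CPM without and 55.04, 51.6 and 58.8 CPM with the drug in the PC3-labelled line, where the vehicle level was higher. Its difference was -1.53 ± 0.11 (adjusted p = 6.18e-11). HES7, a repressor known from the somite clock, rose from 0.521, 0.5599 and 0.5501 to 1.21, 1.696 and 1.04 CPM at a level far below that of the PC3-labelled line, 7.25, 6.47 and 5.597 CPM in vehicle. ZNF486, a zinc finger protein, had changes of -0.57 ± 0.34 and 1.18 ± 0.22, and TMEM160 of -0.31 ± 0.25 and 1.18 ± 0.25. The PC3-labelled vehicle values of TMEM160 were 17.00, 7.57 and 8.396 CPM, with replicate 1 apart from the others. Among those that fell in the DU145-labelled line alone, beside SOD2 and CXCL3, were the inflammasome sensor NLRP3 and the small Maf factor MAFF. NLRP3 fell from 8.72, 6.65 and 7.91 to 3.28, 2.31 and 2.43 CPM, stayed below 1 CPM in every PC3-labelled sample, and lost its call without PC3-labelled treated replicate 2 (adjusted p = 0.184, edgeR). MAFF fell by -1.09 ± 0.10 and changed by 0.21 ± 0.10 in the PC3-labelled line.

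The largest group with a shared direction was that of genes induced in both lines but more in the PC3-labelled line. ATF4 targets were prominent among them. Of 50 tested ATF4 targets, 12 were past the threshold for the difference, all more positive in the PC3-labelled line (24.0%, against 1.71% of all genes). By adjusted p alone 36 were more positive there and 3 less positive, where 10.2% and 10.3% of all genes were. The median change of the list was 1.55 in the PC3-labelled line and 0.98 in the DU145-labelled line. ATF4 targets with the letters TGATGNAA, the ATF4-C/EBP element, within the window from 250 bases before to 50 after the start on either strand numbered 3 of the 12 past the threshold, against 3.62% of all promoters in the table. CHAC1, a glutathione-degrading enzyme, is shown as 1 of them with the element in capitals, from chr15:40953221-40953470 on the plus strand of GRCh38.p14, where it reads TTGCATCA and begins 209 bases before the RefSeq start, which lies downstream of the outermost start of the annotated gene.
CHAC1: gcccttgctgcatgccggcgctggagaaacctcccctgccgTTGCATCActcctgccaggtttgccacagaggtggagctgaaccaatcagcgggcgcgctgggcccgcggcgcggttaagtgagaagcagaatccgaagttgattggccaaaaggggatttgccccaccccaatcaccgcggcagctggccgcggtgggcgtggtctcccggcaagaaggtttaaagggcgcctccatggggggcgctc
Only 32 of the 50 list members and 67.3% of all genes tested had a promoter in the table. The shares of motifs over the whole list and over the classes of genes are therefore void for want of matches and are not given. The 17.6% given above for the NF-kB consensus likewise covers only the tested genes that were matched. The 3 of 12 counts genes and the 3.62% counts promoters, so the values are not on the same scale. With no share for the rest of the list, the 3 of 12 does not bear on the difference between the lines.

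DDIT4 (chr10:72273920-72276036), which encodes the mTORC1 inhibitor REDD1, had the largest difference among the ATF4 targets. It went from 6.71, 6.99 and 8.62 to 291, 301 and 284 CPM in the PC3-labelled line and from 31.6, 25.9 and 28.1 to 127, 114 and 113 CPM in the DU145-labelled line. The vehicle level was lower in the PC3-labelled line by -1.94 ± 0.10 on the log2 scale, and the level with the drug was higher there in every sample. The changes of 5.30 ± 0.08 and 2.05 ± 0.07 differed by 3.25 ± 0.11 (adjusted p = 1.07e-17).

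SESN2, a sestrin that also restrains mTORC1, was at 16.4, 17.3 and 19.8 CPM in PC3-labelled and 20.2, 18.9 and 17.3 CPM in DU145-labelled vehicle samples, and reached 322, 317 and 313 CPM in the PC3-labelled line and 96.1, 93.1 and 92.6 CPM in the other. CHAC1 had a smaller difference, 1.02 ± 0.12, and went from 8.33, 9.84 and 8.396 to 134, 129.8 and 137 CPM in the PC3-labelled line and from 10.7, 9.17 and 8.25 to 71.8, 67.6 and 68.1 CPM in the other. The vehicle differences of SESN2 and CHAC1 were -0.08 ± 0.08 and -0.07 ± 0.11, small beside their differences in response. JDP2, a bZIP repressor, and SLC6A9, the glycine transporter GLYT1, had lower PC3-labelled vehicle levels and differences of 2.35 ± 0.32 and 1.93 ± 0.14. STC2, the secreted glycoprotein stanniocalcin 2, had the higher vehicle level in the PC3-labelled line, 159, 171 and 178 against 45.7, 50.95 and 40.2 CPM, and rose to 1539, 1607 and 1512 CPM there and 140.02, 136 and 137 CPM in the other. Among the ATF4 targets named here, the PC3-labelled vehicle level was thus lower, similar or higher.

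Of the transcription factors in the list, DDIT3 and ATF3 were past the threshold beside JDP2. DDIT3, which encodes the pro-apoptotic factor CHOP, went from 3.18, 5.57 and 5.38 to 32.9, 34.3 and 27.2 CPM and from 5.59, 5.53 and 5.64 to 13.7, 14.9 and 11.7 CPM. ATF3 changed by 3.79 ± 0.14 and 2.40 ± 0.24, and the call of its difference, 1.39 ± 0.34, was lost without DU145-labelled vehicle replicate 2 (adjusted p = 0.0583, edgeR). Other members had differences nearer to 0. PHGDH, the first enzyme of serine synthesis, changed by 1.52 ± 0.04 and 1.48 ± 0.05, with an interval of the difference of -0.09 to 0.17. TRIB3, a pseudokinase induced by CHOP, rose by 2.40 ± 0.04 and 1.66 ± 0.04, a difference of 0.74 ± 0.06 that has a low adjusted p (3.39e-10) but not the size asked for. The BH3-only genes BBC3 and HRK, which promote apoptosis, rose in both lines, with differences of -0.25 ± 0.26 (interval -0.79 to 0.29) and 0.79 ± 0.85 (interval -0.95 to 2.53). For HRK, PC3-labelled vehicle libraries had 2, 2 and 0 counts, so its rise there is at least 4.52-fold and its difference is poorly bounded.

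**Figure D3:**
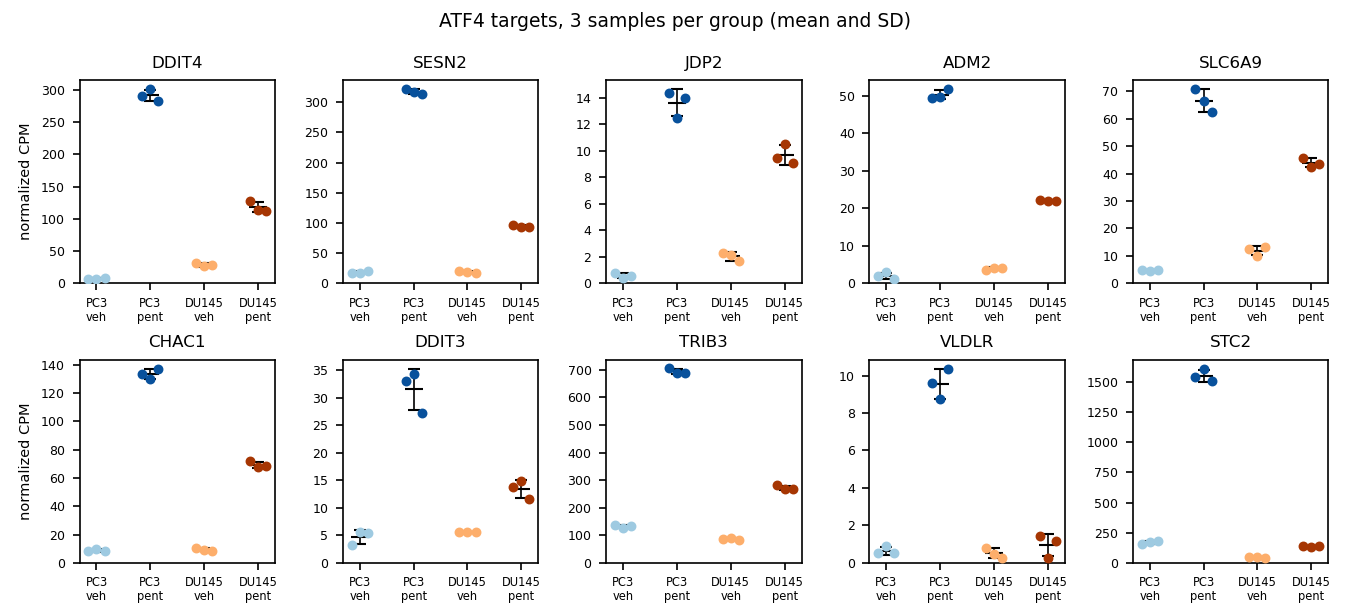
Normalized CPM (y axis, from 0) of 10 ATF4 targets in each of the 4 groups, with 1 point per sample, the mean as a dash and the SD as bars. DDIT4 and SESN2 reach 284 to 322 CPM in the PC3-labelled treated samples against 92.6 to 127 in the DU145-labelled treated samples, from vehicle levels that differ between the lines for DDIT4 and not for SESN2.

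Outside this list, CCND2 and OSCAR led the genes that rose more in the PC3-labelled line. Cyclin D2 (CCND2) read 0.271, 0.194 and 0 CPM in PC3-labelled vehicle samples and 2.29, 2.35 and 1.75 CPM with pentamidine. In the DU145-labelled line it read 18.5, 17.1 and 18.2 and 30.1, 31.95 and 29.4 CPM, so the larger fold belonged to the line with the smaller gain in CPM. A larger fold in the PC3-labelled line with a larger gain in CPM in the DU145-labelled line held for 9 of the 62 genes of this kind. OSCAR, an immunoglobulin-like receptor of osteoclasts, rose from 3.05, 2.85 and 2.43 to 32.8, 32.4 and 27.8 CPM in the PC3-labelled line and from 2.53, 2.31 and 2.27 to 3.999, 3.39 and 3.96 CPM in the other. Genes of other stress programmes in the same class were GADD45A, a growth arrest gene, with changes of 1.44 ± 0.06 and 0.31 ± 0.08, XBP1, a factor of the endoplasmic reticulum stress response, with 1.41 ± 0.06 and 0.20 ± 0.06, and the matricellular gene CTGF with 1.56 ± 0.04 and 0.33 ± 0.04. HMOX1, which degrades haem, changed by 1.41 ± 0.04 and 0.37 ± 0.04, and scaled by library size alone its difference was 0.97. The keratin KRT7 and the growth-related gene NDRG1 had PC3-labelled vehicle levels of 1.29, 1.55 and 1.91 CPM and of 2.44, 1.55 and 1.62 CPM, with differences of 1.14 ± 0.23 and 1.11 ± 0.26. The NDRG1 value passed below 1 without PC3-labelled vehicle replicate 2 (0.98), treated replicate 2 (0.99) or DU145-labelled vehicle replicate 2 (0.92). The 2 genes that fell in both lines and more in the PC3-labelled line were the orphan receptor GPRC5B and the protease FAM111B. FAM111B went from 99.6, 86.6 and 85.6 to 28.4, 29.99 and 31.1 CPM and from 94.98, 89.9 and 93.7 to 72.3, 71.8 and 72.6 CPM, and GPRC5B changed by -1.56 ± 0.14 and -0.24 ± 0.07.

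Genes of the cell cycle differed between the lines in a uniform but small way. All 48 tested S phase genes and all 54 tested G2 and M phase genes had a negative difference, where 51.1% of all genes did. None was past the threshold with edgeR, DESeq2 or limma. The difference was negative at an adjusted p below 0.05 for 47 of the 48 and 45 of the 54, against 10.3% of all genes, and at an unadjusted p below 0.05 for 48 and 49. The median change of the S phase list was -0.68 in the PC3-labelled line and -0.13 in the DU145-labelled line, and that of the G2 and M phase list -0.53 and -0.08. At an adjusted p below 0.05 (edgeR), 48 of the 48 and 50 of the 54 fell in the PC3-labelled line and none rose. Of all genes 22.2% fell and 21.6% rose there. In the DU145-labelled line 20 of the 48 fell and 2 rose, and 18 of the 54 fell and 5 rose. Of all genes 12.6% fell and 12.5% rose in that line. MCM5, part of the replicative helicase, fell from 275, 247 and 289 to 171, 166 and 168 CPM in the PC3-labelled line and went from 408, 392 and 394 to 431, 434 and 434 CPM in the other. TOP2A, a topoisomerase of dividing cells, changed by -0.55 ± 0.04 and 0.03 ± 0.04. MCM5 and TOP2A, neither of which fell in the DU145-labelled line, were chosen after their values were seen.

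Mitochondria-encoded mRNAs fell in both lines, and less in the PC3-labelled line. Their median change was -4.12 there and -4.85 in the DU145-labelled line over 13 tested genes, all 13 with a positive difference, where 51.1% of all genes had a negative one, and 12 with an adjusted p below 0.05, against 10.2% of all genes. Only MT-ND4L, a subunit of complex I whose gene overlaps MT-ND4, was past the threshold for the difference. It fell from 287, 472 and 497 to 25.7, 25.5 and 20.9 CPM in the PC3-labelled line and from 574, 552 and 588 to 15.2, 16.1 and 16.1 CPM in the other, and without PC3-labelled vehicle replicate 1 its difference was 0.84. MT-CO1, the catalytic subunit of cytochrome c oxidase, changed by -3.99 ± 0.04 and -4.35 ± 0.04.

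The other lists held few genes past the threshold, and in each of these the gene was more positive in the PC3-labelled line, as 1.71% of all genes were. Immediate early genes had 5 of 29 (17.2%), which were IER3, ATF3, DUSP5, KLF4 and DUSP1. Epithelial genes had 3 of 16 (18.8%), which were KRT7 and, at a few counts per library in the PC3-labelled line, KRT81 and ESRP1. With limma 1 of the 16 epithelial genes was past the threshold. There were 2 of 31 HIF targets (STC2 and NDRG1, 6.45%) and 2 of 27 p53 targets (GADD45A and TNFRSF10B, 7.41%). A single gene was past it among 5 metallothioneins (MT1X, 20%), 23 genes of the unfolded protein response (XBP1, 4.35%) and 24 NRF2 targets (HMOX1, 4.17%). The same held for 26 mesenchymal genes (CTGF, 3.85%), 28 interferon-stimulated genes (ISG20, 3.57%) and 36 lysosome genes (LAMP3, 2.78%). Some of these numbers changed with the method. Limma gave 0 of 28 interferon-stimulated genes, 1 of 31 HIF targets and 2 of 26 mesenchymal genes. Library size alone gave 0 of 24 NRF2 targets and 4 of 29 immediate early genes. Neither the 21 glycolysis genes nor the 24 genes of cholesterol synthesis had any with edgeR, DESeq2 or limma. At an adjusted p below 0.05 with no limit on size, and also at an unadjusted p below 0.05, 16 of the 24 cholesterol genes were more positive in the PC3-labelled line and 1 was less positive, where 10.2% and 10.3% of all genes were by adjusted p. In the list as a whole, 10 genes rose and 3 fell in the PC3-labelled line, against 21.6% and 22.2% of all genes, and 1 rose and 14 fell in the DU145-labelled line, against 12.5% and 12.6%. HMGCS1, an early enzyme of that pathway, was at 216, 229.7 and 221 CPM and 221, 229 and 233 CPM in the first line and fell from 132, 146 and 132 to 87.8, 90.9 and 90.5 CPM in the second. For glycolysis the numbers were 4 more and 2 less positive at an adjusted p below 0.05, and 4 and 5 at an unadjusted p below 0.05.

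**Figure D4:**
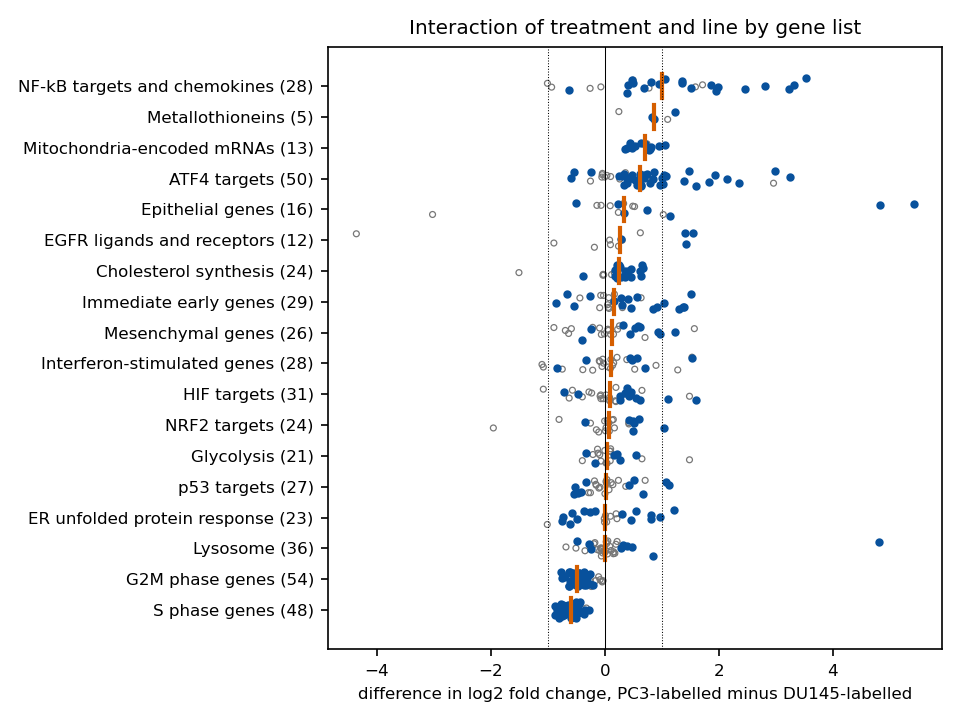
Difference in log2 fold change between the lines (x axis, PC3-labelled minus DU145-labelled) for each tested gene of 18 lists, with the number of genes in brackets, filled points at an adjusted p below 0.05 and a bar at the list median. The NF-kB list has a median of 1.01 and the ATF4 list 0.61, while all S phase and G2 and M phase genes lie below 0.

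Across all 399 genes, responses that were more positive in the PC3-labelled line went with lower vehicle levels there. Of the 261 such genes, 125 (47.9%) were called lower in PC3-labelled than DU145-labelled vehicle samples and 28 (10.7%) higher. Of the 138 genes with less positive responses, 27 (19.6%) were lower and 48 (34.8%) higher. Over all genes tested 12.5% were lower and 8.18% higher. The vehicle samples enter both comparisons, so that an error in a vehicle mean moves both in opposite directions, and no test of the relation was made. The filter on counts also enters, since a gene with few counts in every PC3-labelled library was tested only through the DU145-labelled libraries. The 44 genes that rose in the PC3-labelled line and fell in the other included 21 with the lower and 5 with the higher PC3-labelled vehicle level, and the 23 with the reverse pattern included 4 and 11. Pentamidine made the gap between the lines narrower for 204 of the 399 genes and wider for 195. Over all 15226 genes tested the gap was narrower for 7331 and wider for 7895, a similar split. The median vehicle level of the 183 genes that responded in the PC3-labelled line alone was 1.31 CPM in that line and 2.66 CPM in the other, against 20.7 and 20.1 CPM over all genes tested, which measures how many reads support these genes rather than transcript abundance.

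**Figure D5:**
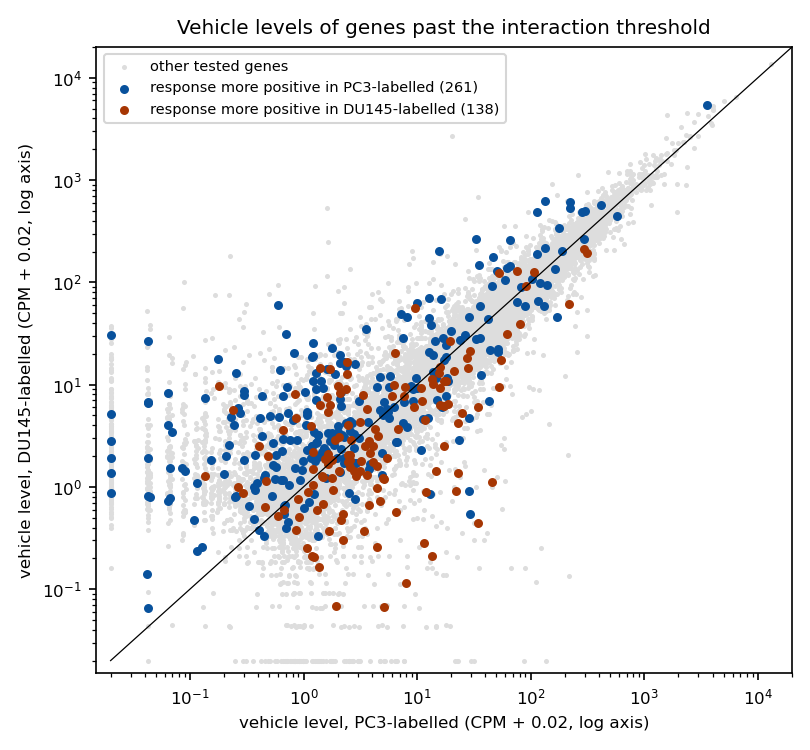
Mean vehicle level in the PC3-labelled line (x axis) and in the DU145-labelled line (y axis), in CPM with 0.02 added on log axes, for the 15226 genes tested, with 1 point per gene and the line of equal levels. The 261 genes with the more positive response in the PC3-labelled line include 125 called lower in PC3-labelled vehicle samples, above the line, and the 138 with the more positive response in the DU145-labelled line include 48 called higher in PC3-labelled vehicle samples, below it.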

How the data were processed

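RNA-seq of 12 libraries was compared, 3 in each of 4 groups taken from the sample labels. The authors captured poly(A) RNA, aligned the reads with HISAT2 2.1.0 to GRCh38 per the labels, and deposited raw counts of reads per gene. The counting program and its strand setting are not given in the sources used here, so overlapping and antisense genes cannot be told apart. Per the labels, DESeq 1.18.1 was used for their own comparisons, whose tables of fold changes and p-values were not used, nor was the table named for FPKM. Of 33595 entries, 1 per gene name and set of counts was kept, 44 damaged lines were dropped and 24 names turned into dates carry no symbol.

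Counts were fitted with edgeR 4.0.16 (R 4.3.3), TMM normalization and filterByExpr at a minimum count of 10, in a single model of all 12 libraries with contrasts for each line, for their difference and for the vehicle groups, and Benjamini-Hochberg adjustment over 15226 genes. On simulated counts for the difference, 98% of changes of 1.5 and 100% of changes of 2 (log2) were called. The changes were planted only in genes above a minimum level in both lines. These shares therefore do not cover genes with few counts in either line. Where every library of a group held at most 3 counts of a gene, its change is given as a bound against that floor, which covers counting error only. Alternatives were DESeq2 1.42.0, other scalings and filters, other thresholds, limma 3.58.1, a replicate block and each library left out.

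The members and gene lists were chosen with earlier results of these data known. Named were, per class and direction, the 5 genes (3 for changes in the same direction) with the largest differences among those with a mean of at least 5 CPM in their highest group and no overlap of treated and vehicle samples where called, up to 3 genes past the threshold per list, BBC3, TRIB3, DDIT3, HRK, BIRC3, DDIT4, CTNNA1 and RB1. Some genes that the rule names are not reported here. Other genes were named after their values were seen.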

Additional observations from a re-analysis of the deposited data

Results flagged for a closer look

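The response differed between the lines past the threshold for 399 genes by the test of the difference itself (edgeR, 12 libraries). The differences of the named genes in log2 fold change, PC3-labelled minus DU145-labelled, follow by kind of response. Among genes that rose in the PC3-labelled line alone, the difference was 7.01 for UNC5B, 5.32 for LINC00565, 5.02 for AKNA, 4.81 for LAMP3, 3.62 for KIF21B, 2.98 for VLDLR and 1.37 for DUSP5. For those that fell there alone it was -4.58 for RPS6KL1, -1.79 for HAS2, -1.74 for SPTB and -1.67 for ZNF488. Genes that rose in the DU145-labelled line alone gave -2.69 for SCG2, -1.75 for ZNF486, -1.53 for FAM84B, -1.49 for TMEM160 and -1.40 for HES7. Those that fell in that line alone gave 2.46 for CXCL3, 1.76 for NLRP3, 1.52 for SOD2 and 1.29 for MAFF. Where the PC3-labelled line rose and the other fell, values were 3.52 for IL6, 3.32 for CCL20, 3.19 for TNFSF18, 3.02 for RGS3, 3.00 for TSPAN18, 1.08 for TNFRSF10B, 1.52 for IER3, 1.54 for EREG and 1.42 for HBEGF. In the reverse orientation they were -2.69 for CBLN2, -2.43 for KIRREL3, -2.01 for KREMEN2, -1.46 for SLIT2 and -1.42 for PPARG. Genes that rose in both lines and more in the PC3-labelled line had 3.25 for DDIT4, 2.90 for CCND2, 2.80 for OSCAR, 2.35 for JDP2, 1.13 for GADD45A, 1.60 for STC2, 1.11 for NDRG1, 1.04 for HMOX1, 1.21 for XBP1, 1.14 for KRT7, 1.24 for CTGF, 1.39 for ATF3 and 1.47 for DDIT3. Genes that fell more in the PC3-labelled line had -1.32 for GPRC5B and -1.24 for FAM111B. Genes that fell more in the DU145-labelled line had 3.24 for CXCL8, 2.04 for CSF3, 1.99 for CXCL1 and 1.05 for MT-ND4L. The fitted values of UNC5B, LINC00565, KIF21B, RPS6KL1, SCG2, TSPAN18 and KIRREL3 rest on a group with 3 counts or fewer per library and depend on the prior count.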

How the results depend on the processing

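Of 1161 values of the 59 named genes under other settings, 1135 kept their direction and side of the threshold and none reversed among called genes, and 37 of the 53 called genes kept their call under every setting that tested them. With at least 10 counts in every sample, 251 genes passed for the difference, 375 in the PC3-labelled line, 114 in the DU145-labelled line and 1351 between vehicle groups, with 85 in the PC3-labelled line alone and 8 in the other alone, since fewer genes were tested. With the adjusted p alone these were 3112, 6667, 3818, 10112, 1727 and 356, with 298 opposite and 641 in the same direction. At an adjusted p below 0.01, 187 passed in the DU145-labelled line, 117 in the PC3-labelled line alone and 41 in opposite directions. Limma on log2(CPM + 1), a scale that shrinks low genes, gave 232, 335, 104, 2083, 84 and 13. It also ended the calls of LINC00565, KIF21B, RPS6KL1, HES7, TSPAN18, KIRREL3, PPARG, CCND2, NDRG1 and KRT7, and gave -0.37 for HRK, which was not called. DESeq2 ended that of TMEM160 (adjusted p = 0.0512), and library size alone those of MT-ND4L and HMOX1. With each library left out, the difference was called for 357 to 412 genes, the PC3-labelled change for 754 to 824, the DU145-labelled change for 248 to 323, the vehicle difference for 3175 to 3279, the PC3-labelled line alone for 155 to 181, the DU145-labelled line alone for 19 to 28, opposite directions for 49 to 66 and the same direction for 61 to 76. Replicate numbers did not pair the samples (correlations of same-numbered deviations from -0.073 to 0.026), and with the replicate block 362 genes passed, 354 of them shared with the fit without it. By class the block gave 164, 21, 64 and 71 genes. The median difference of all genes was -0.0091, and -0.077 with library size alone. List medians kept their sign in all but 15 of 360 values. In 314 of the 360 the median moved by less than 1 SD, built from the spread of the list between treated samples of both lines, and in the rest by at least that. Depth limits genes near 3 counts per library, where a change in either line may go undetected.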

Other observations

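Histone genes of the replication-dependent clusters, whose mRNAs usually lack a poly(A) tail and so enter poly(A)-selected libraries only in part, were described after their values were seen. Of 29 tested, 27 had a positive difference, 14 of them at an adjusted p below 0.05 (edgeR), and 11 were past the threshold (37.9%, against 1.71% of all genes). None had a negative difference at an adjusted or unadjusted p below 0.05, and 16 had a positive one at an unadjusted p below 0.05. In the PC3-labelled line 11 rose and none fell, where 21.6% and 22.2% of all genes did, and in the DU145-labelled line 10 fell and none rose, against 12.6% and 12.5% (12 and 0, and 11 and 0, at an unadjusted p below 0.05). HIST1H2BK, which encodes a histone H2B, read 14.8, 15.8 and 16.1 CPM in PC3-labelled vehicle samples and 32.0, 36.2 and 30.4 CPM with pentamidine. Its DU145-labelled samples went from 199.7, 203 and 201 CPM to 135, 124 and 111 CPM, and the difference was 1.78 ± 0.10. HIST1H4I, a histone H4 gene, changed by 0.81 ± 0.15 and -0.76 ± 0.09, and HIST1H2AC, a histone H2A gene, by 1.06 ± 0.09 and -0.36 ± 0.07. The vehicle level was called lower in the PC3-labelled line for 23 of the 29, against 12.5% of all genes. The S phase genes moved the other way in the PC3-labelled line, with a median change of -0.68. Histone genes are near-identical copies, and how reads shared between them were counted is not given in the sources used here.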
